A study of Mus musculus with 12 samples.

Results

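The adhesion G protein-coupled receptors of mouse gonadal white fat were taken as every listed gene whose symbol begins with Adgr followed by a letter and a digit, plus Celsr1 to Celsr3. The rule found 29 genes among the 32772 listed in either of the deposited count tables. All 29 stood in the diet table and 28 in the PCN table, where Adgrg3 was not listed. All mice were C57BL/6N and began the diet period at 6 weeks of age. The 4 groups of 3 libraries were Chow (regular chow for 18 weeks, no injection named), HFD (high-fat diet for 18 weeks, no injection named), HFD Vehicle (the same high-fat diet, then vehicle, 30% DMSO in corn oil) and HFD PCN (the same high-fat diet, then pregnenolone 16α-carbonitrile, an agonist of the rodent pregnane X receptor, at 50 mg/kg). Vehicle and PCN were given intraperitoneally once a day for 4 days. The family was selected on symbols alone, while Adgrd1 was selected on its deposited PCN difference and Adgre1 on its rise with the diet as a macrophage gene; those values are descriptions without a test. Whether a library came from 1 mouse or from pooled tissue was not given in the labels used here, so p-values measure the spread between libraries.

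Adhesion receptors carry a long extracellular part built from adhesion modules, followed by a domain in which most members cut themselves, and then the membrane-spanning part common to G protein-coupled receptors. After the cut, both pieces stay attached, and the stub left on the membrane part can act as a built-in agonist once the outer piece is pulled away by a ligand, the matrix or a neighbouring cell. In fat, members of the family are known from macrophages, from the endothelium of its dense capillary bed, from adipocytes and from stromal cells.

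The libraries held 11090117 to 27408092 counts. Levels are given as scaled CPM, each count relative to the total of its library (CPM) after trimmed-mean (TMM) scaling over all 12 libraries, and, wherever genes are compared with each other, as scaled CPM per kb of exon. The source label reads duodenum, against the gonadal fat of the title. Adipocyte markers were high in every library (Fabp4 2789 to 8043 and Adipoq 348.5 to 2140 scaled CPM), while the gut epithelial genes Epcam and Cdh17 stayed at or below 0.297 and 0.360. Vil1 reached 2.79, and Lgals4, also on the gut list, reached 49.2 scaled CPM. Certain libraries stood apart from their group. HFD Vehicle 50 had a summed macrophage marker level of 1000 scaled CPM against 5132 and 5751 in HFD Vehicle 23 and 55, and a summed endothelial marker level of 1562 against 539.6 and 567.4. HFD PCN 11 had a summed macrophage level of 2450 against 5497 and 5902 in HFD PCN 5 and 27. The label of HFD Vehicle 50 could not be checked from the files, and every vehicle mean includes it. Values that rest on these libraries are given with and without them.

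The members that made up the family differed between the diets. The 28 members listed in both tables summed to between 1357 and 1621 scaled CPM in all 12 libraries. Without Adgre1 the sum was 1346 to 1411 scaled CPM in Chow and 618 to 667 in HFD. Per kb of exon the sum with Adgre1 was 208 to 225 scaled CPM per kb in Chow and 383 to 405 in HFD. Per kb of exon, Adgrf5 led in chow-fed fat with 72.7 ± 0.945 scaled CPM per kb (SD, n = 3), followed by Adgrl4 at 38.3 ± 1.83, Adgre5 at 31.4 ± 5.75, Adgrg1 at 22.5 ± 1.55 and Adgre1 at 15.2 ± 7.54. Adgrl4 and Adgre5 lay within their spread of each other in that order, as did Adgrg1 and Adgre1. In uninjected obese fat Adgre1 led with 289 ± 7.69 scaled CPM per kb, ahead of Adgre5 at 41.9 ± 5.11, Adgrf5 at 19.1 ± 0.893 and Adgrl4 at 10.9 ± 0.377. Adgrd1 stood at place 8 in Chow (4.17 ± 1.17, within the spread of Adgra3 at 6.30 ± 2.54 and Adgrl1 at 3.51 ± 0.586) and at place 5 in HFD (6.29 ± 1.31, within the spread of Adgrg1 at 5.14 ± 0.486).

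**Figure D1:**
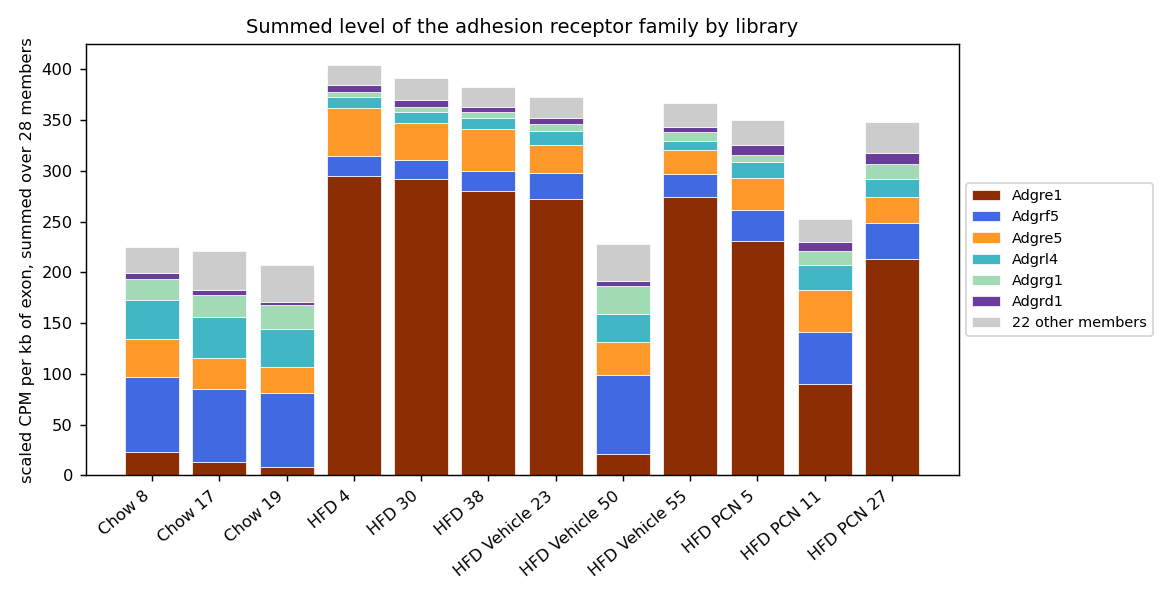
Summed level of the 28 members listed in both tables in each of the 12 libraries, in scaled CPM per kb of exon, with the leading members as stacked colours. Adgre1 makes up 72.8% to 74.7% of the bar in the HFD libraries, 4.14% to 10.4% in the Chow libraries and 9.23% in HFD Vehicle 50.

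Levels of 7 members were at or near the detection limit throughout: Adgra1, Adgrb1, Adgrb3, Adgrf1, Adgrf3, Adgrg7 and Adgrv1. Adgrv1, a very large receptor of sensory hair cells, had 1 to 16 counts per library. Adgrb1 and Adgrb3, brain-type receptors of the BAI group, had at most 4 and 1 counts, and Adgrg7, an intestinal member, at most 2. Adgra1 had 0 counts in all 3 Chow libraries and 4, 3 and 1 in HFD, too few for a comparison. None of these 7 passed the count filter in any comparison.

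High-fat diet against chow asked how the family differed in obese fat. Of the 29 members, 21 passed the filter on low counts, and Adgre1, which was chosen for study as a macrophage gene, is described without a test. Of the other 20, 2 rose (Adgrg6 and Adgre4), 11 fell (Adgrf5, Adgrl4, Adgrg1, Adgrg2, Adgrg3, Adgrg5, Adgrl3, Adgra3, Adgrb2, Adgrf2 and Celsr2) and 7 did not pass (edgeR quasi-likelihood test, Benjamini-Hochberg adjusted p under 0.05). Adgrb2, Adgrf2 and Adgrg5 were low in HFD and passed the count filter through their Chow libraries, where they were higher. Their place among the 11, in the median and in every count of called or non-overlapping members is therefore a description. It is no support for a difference. Across all 16216 genes tested, 59.8% were called, 29.8% higher and 30% lower. The median log2 fold change of the 20 was -1.35, beside -0.03 over all genes tested. Groups did not overlap for 4 of the 20 upward and 11 downward, beside 36.1% and 32.4% of all genes. DESeq2 called 16 of the members other than Adgre1, limma-voom 13, and 14 passed in the authors' deposited table, beside 44.7%, 60% and 31.7% of all genes. The split of higher to lower was 5 to 11 in DESeq2, where Adgrd1, Adgre5 and Celsr1 were added, 2 to 11 in limma-voom, 3 to 11 in the authors' deposited table and 5 to 12 with no count filter in edgeR.

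**Figure D2:**
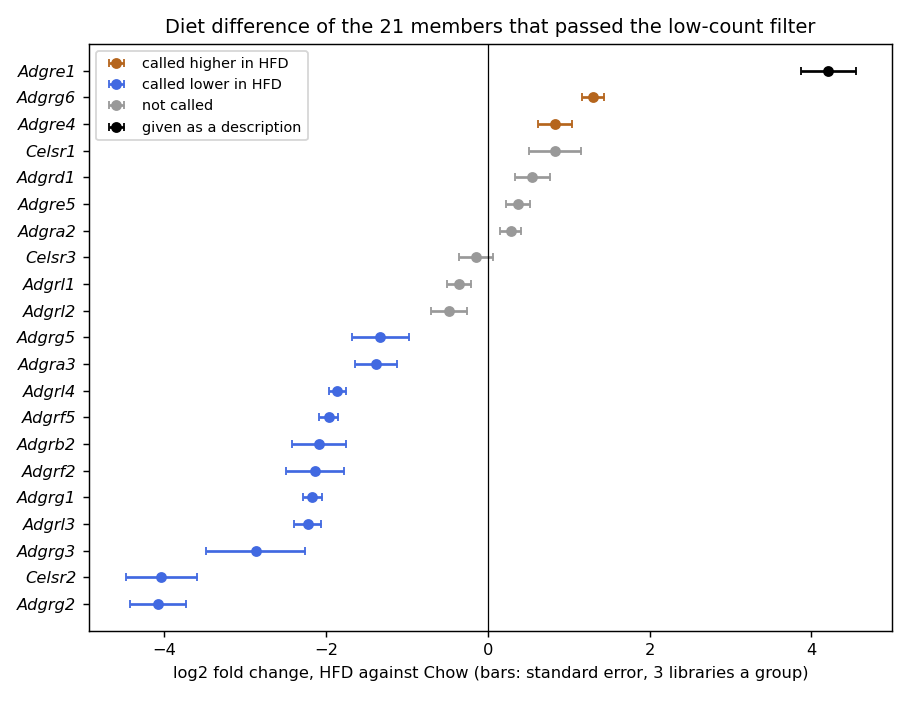
Log2 fold change of HFD against Chow for each member that passed the count filter, with bars of 1 standard error and colour by call; Adgre1 is shown as a description. Adgre1 lies at 4.21, Adgrg6 at 1.30, and Adgrg2 and Celsr2 at -4.08 and -4.04.

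The most abundant fall was in the endothelial members. Adgrf5, a receptor of endothelial and lung epithelial cells that is also present in adipocytes, and Adgrl4, an endothelial receptor of sprouting vessels, lie on different chromosomes (Adgrf5 at chr17:43360451-43459557 and Adgrl4 at chr3:151437887-151545086, both + strand, GRCm38). The 250 bases before a RefSeq start of each are shown because these genes fell together. Capitals mark the hexamer AGGAAG or its reverse complement CTTCCT, which contains the core letters read by ETS factors. The windows are chr17:43360181-43360430 for Adgrf5 and chr3:151437632-151437881 for Adgrl4, both + strand in GRCm38.p6.
Adgrf5: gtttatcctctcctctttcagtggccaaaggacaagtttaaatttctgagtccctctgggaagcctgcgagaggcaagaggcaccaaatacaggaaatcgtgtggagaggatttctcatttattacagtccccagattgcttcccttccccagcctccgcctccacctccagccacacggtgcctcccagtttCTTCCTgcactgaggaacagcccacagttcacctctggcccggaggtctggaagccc
Adgrl4: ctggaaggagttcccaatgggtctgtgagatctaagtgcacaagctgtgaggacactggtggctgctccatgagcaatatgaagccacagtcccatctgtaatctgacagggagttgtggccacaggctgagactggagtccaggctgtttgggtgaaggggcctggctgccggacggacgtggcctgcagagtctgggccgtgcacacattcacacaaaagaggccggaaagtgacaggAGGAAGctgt
Both strands were searched for this hexamer, and no other motif was. A second start of Adgrf5 (window chr17:43389216-43389465) and both windows of Adgrg1, described next, held no match. The bases just after those starts were found as an unbroken stretch in a GENCODE transcript of the gene. Those after the Adgrf5 and Adgrl4 starts shown above were not, so the windows with a match rest on the RefSeq start alone. The hexamer was found in 9 of the 25 windows (36%) available for 21 members, beside 29.5% of the 32851 windows of all genes, and it is a description of these letters only. No window was at hand for Adgra2, Adgrb1, Adgrd1, Adgre1, Adgre5, Adgrf2, Adgrf3 and Celsr1.

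Adgrf5 had 665, 650 and 651 scaled CPM in Chow 8, 17 and 19, and 178, 163 and 176 in HFD 4, 30 and 38. The groups were far apart and each was tight. Its log2 fold change was -1.97 ± 0.12 (SE, adjusted p = 1.13e-05, edgeR). Adgrl4 had 172, 185 and 169 scaled CPM in Chow and 51.0, 47.8 and 50.6 in HFD, and fell by 1.86 ± 0.10 on the log2 scale (SE, adjusted p = 8.07e-06). Adgrg1, a collagen III receptor of neural progenitors, cytotoxic lymphocytes and other cells, had 116, 118 and 132 scaled CPM in Chow and 25.9, 26.8 and 30.9 in HFD, and fell by 2.17 ± 0.12 (SE, adjusted p = 7.95e-06, both edgeR). For all 3 genes every Chow library exceeded every HFD library.

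Endothelial markers fell as well: all 8 of the endothelial list were called lower, and their summed level was 1352 to 1382 scaled CPM in Chow and 435 to 460 in HFD. None of the 8 was at 0 in any group. In bulk tissue, fewer cells of a type and less RNA per cell cannot be told apart. Adgrf5 stood at 47.2% to 48.1% of the summed endothelial level in Chow and at 37.5% to 38.7% in HFD, Adgrl4 at 12.3% to 13.7% and 11.0% to 11.1%, and Adgrg1 at 8.39% to 9.55% and 5.65% to 6.71%. The part of the endothelial change in these results was not tested.

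The largest falls by ratio were in Adgrg2 and Celsr2. Adgrg2, an orphan receptor best known from the efferent ducts of the male tract, had 28.8, 56.8 and 63.5 scaled CPM in Chow and 3.91, 2.84 and 2.16 in HFD, and fell by 4.08 ± 0.35 on the log2 scale (SE, adjusted p = 4.1e-05, edgeR). The Chow libraries were spread, with Chow 8 the lowest, yet all lay above HFD. Of the 6 epididymis markers, Rnase10 and Crisp1 were listed in both tables and summed to at most 0.434 scaled CPM in any library. Adam7, listed in the diet table, had 0 counts in Chow and at most 0.362 scaled CPM in HFD. Celsr2, an atypical cadherin of planar cell polarity, had 14.5, 25.9 and 46.6 scaled CPM in Chow and 1.92, 2.10 and 1.28 in HFD, and fell by 4.04 ± 0.44 on the log2 scale (SE, edgeR, adjusted p = 0.000138). Its relatives Celsr1 and Celsr3 were not called. Celsr1 had 1.34 to 2.70 scaled CPM in Chow and 2.91 to 4.73 in HFD without overlap (0.83 ± 0.32 SE, edgeR adjusted p = 0.0545), and Celsr3 had 2.86 to 3.57 and 2.63 to 3.18 (-0.15). Adipocyte markers moved in the same direction as Adgrg2 and Celsr2, with 6 of 8 called lower and a sum of 20960 to 27670 scaled CPM in Chow against 11840 to 13580 in HFD. Whether this bears on the 2 receptors was not tested.

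Adgrl1 to Adgrl3 are the latrophilins, receptors for teneurins and FLRT proteins. Adgrl3 fell from 13.1, 15.01 and 13.1 scaled CPM in Chow to 2.75, 2.87 and 3.50 in HFD, a decrease whose log2 size was -2.23 ± 0.17 (SE, edgeR, adjusted p = 2.64e-05). Adgrl1 and Adgrl2 did not pass, with log2 fold changes of -0.36 and -0.48 and edgeR adjusted p of 0.0653 and 0.0912; 15.6% of the exonic bases of Adgrl1 overlap Gm10644, and nothing in the sources used here says whether counting used strand. Adgra3, a receptor linked to Wnt signalling, had 39.8, 74.9 and 38.5 scaled CPM in Chow and 20.8, 17.5 and 23.0 in HFD, and fell (-1.38 ± 0.26 SE, edgeR adjusted p = 0.00244). Adgra2, the co-receptor with Reck for Wnt7 in brain vessels, went from 18.9 to 21.4 scaled CPM in Chow to 23.3 to 28.3 in HFD and missed the call (0.28, edgeR adjusted p = 0.0901). Adgrb2 had 29, 18 and 18 counts in Chow and 11, 16 and 6 in HFD. These were 2.15, 1.43 and 2.04 against 0.398, 0.561 and 0.350 scaled CPM. As a description its log2 fold change was -2.09 ± 0.33 (SE). Adgrf2, also a description, lay at a lower level still, with 0.794 to 1.25 scaled CPM in Chow and 0.217 to 0.245 in HFD.

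Adgrg5, Adgrg1 and Adgrg3 lie in a row on chromosome 8 on the + strand. There are 31470 bases between Adgrg5 and Adgrg1 and 3474 bases between Adgrg1 and Adgrg3. All 3 were lower in HFD, for Adgrg5 as a description. Adgrg3, a granulocyte and lymphatic endothelial member, had 4.16, 17.2 and 3.63 scaled CPM in Chow (56, 217 and 32 counts) and 1.30, 1.09 and 1.17 in HFD (36, 31 and 20 counts). Chow 17 was more than all others, but the remaining Chow libraries also lay above HFD (-2.87 ± 0.61 SE on the log2 scale, edgeR adjusted p = 0.00411). Without Chow 17 it was -1.74 and still called. The summed neutrophil markers were 7.03 to 17.9 scaled CPM in Chow and 17.4 to 20.4 in HFD. Adgrg5, a leukocyte member, had 1.49, 1.27 and 1.81 scaled CPM in Chow and 0.832, 0.420 and 0.584 in HFD, on 10 to 23 counts a library. As a description its log2 fold change was -1.33 ± 0.35 (SE). Without HFD 30 it was -1.09 and not called by edgeR.

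Adgrg6 rose with the diet. This receptor of laminin and type IV collagen, needed for myelination by Schwann cells, had 23.0, 17.2 and 19.9 scaled CPM in Chow and 53.3, 54.5 and 44.3 in HFD. The ranges were well separated, and the rise was 1.30 ± 0.14 on the log2 scale (SE, adjusted p = 0.000113, edgeR). Markers of Schwann cells and nerve summed to 41.8 to 45.5 scaled CPM in Chow and 54.1 to 59.6 in HFD, with 2 of the 4 tested called higher and 2 lower; progenitor and fibroblast markers summed to 864 to 1480 and 2688 to 3147, with 7 of 8 higher. Their part in the result was not tested.

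Among the EGF-type receptors of immune cells, Adgre1, the macrophage receptor, had 75.8, 43.6 and 27.9 scaled CPM in Chow and 955, 947 and 908 in HFD, or 246 to 1020 counts against 15559 to 27028. As a description its log2 fold change was 4.21 ± 0.34 (SE). Other macrophage markers rose too, 7 of 8, to a sum of 6014 to 6829 scaled CPM in HFD from 628 to 1420 in Chow. Adgre1 stood at 4.44% to 5.34% of that sum in Chow and 14.0% to 15.7% in HFD. The sum is weighted to the most abundant markers, and single markers differed. Mean levels in Chow and HFD were 25.6 and 583 scaled CPM for Cd68, and 73.25 and 582 for C1qb. Adgre4, another myeloid member, rose from 3.97 to 5.94 scaled CPM in Chow to 7.38 to 10.3 in HFD (0.83 ± 0.21 SE, edgeR adjusted p = 0.00989). With all 12 libraries in a common fit Adgre4 lost its call (adjusted p = 0.159). Adgre5, the leukocyte receptor for Cd55, overlapped between the groups, with 98.6 to 141 and 139 to 178 scaled CPM (0.37, edgeR adjusted p = 0.0611); 24.7% of its exonic bases overlap Ddx39.

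Adgrd1, a receptor that couples to cAMP production, had 43.5, 36.3 and 24.3 scaled CPM in Chow and 55.7, 61.2 and 40.1 in HFD, on 585, 457 and 214 and on 1539, 1746 and 687 counts. HFD 38 lay below Chow 8, so the groups overlapped. The log2 fold change was 0.55 ± 0.22 (SE) and did not pass the edgeR test (adjusted p = 0.063). This call sits at the threshold: DESeq2 (adjusted p = 0.0366), dropping the count filter (0.00548), a fit of all 12 libraries (0.0421), leaving out Chow 8 (0.0168) and leaving out HFD 38 (0.0322) each passed it. The other 9 of the 14 alternatives did not pass, limma-voom among them (adjusted p = 0.0676). Nor did the authors' deposited adjusted p (0.0512).

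**Figure D3:**
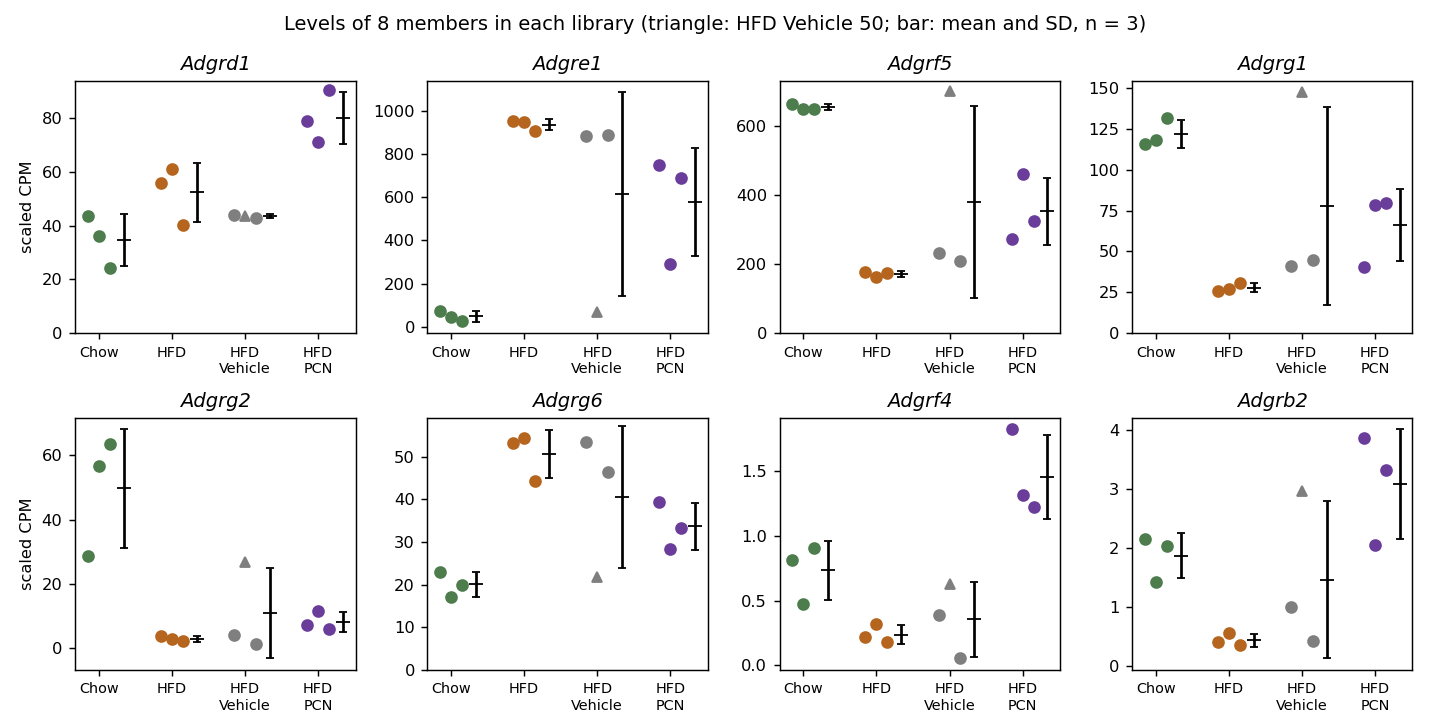
Scaled CPM of 8 members in every library by group, with mean and SD (n = 3) beside the points and HFD Vehicle 50 drawn as a triangle. For Adgrf5, Adgrg1 and Adgre1 the triangle lies with the Chow libraries, and for Adgrd1 it lies between the other vehicle libraries (43.7 against 44.1 and 42.7).

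Partners of the receptors were counted from 3 lists drawn from general knowledge of reported interactions. Of the ligands and extracellular partners, 22 of 35 were tested, and 7 rose, 4 fell and 11 did not pass; their median was -0.17 on the log2 scale. Among latrophilin ligands Flrt2 rose by 2.37 and Tenm3 by 0.82 on the log2 scale, while Tenm4 had a log2 fold change of -2.02. Col3a1, a ligand of Adgrg1, rose by 2.07, and Plvap, another, had -0.48. Tgm2, also on the ligand list, rose by 0.41. Lama2, the laminin chain bound by Adgrg6, rose by 0.87, while Prnp, also reported to bind Adgrg6, had -0.96. The collagen IV genes Col4a1 and Col4a2 were not called. Plxdc2 and Ptk7, reported partners of Adgrd1, rose by 1.01 and 0.76. Thbs1, a matrix glycoprotein on the list, had -2.19. Fndc4, reported to bind Adgrf5, and Cd55 were not called (0.64 and -0.42). Every adjusted p of a called gene of this list lay between 1.63e-05 and 0.0329 (edgeR).

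Of the 10 planar polarity partners, which act with the Celsr cadherins, 8 fell, none rose, and Dvl2 and Vangl2 did not pass (median -0.78). Fzd3 had a log2 fold change of -1.30, Ankrd6 -1.59, Dvl3 -0.93 and Fzd6 -1.46. Of the 16 intracellular partners 6 rose, 5 fell and 5 did not pass (median -0.18). Arrb2, an arrestin, rose by 1.20 and Gna13, a G protein alpha subunit, by 1.24, while Gnao1 had -1.72 and the scaffold gene Magi1 -1.42. Over all genes, 29.8% were called higher and 30% lower.

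PCN against vehicle asked how the pregnane X receptor agonist bears on obese fat. Nr1i2, the gene of that receptor, had 5 counts in HFD Vehicle 23 and at most 1 in every other library. Whether PCN acted through this receptor in the fat was not tested. Adgrd1 was picked for this contrast, so its values are a description. It had 44.1, 43.7 and 42.7 scaled CPM in HFD Vehicle 23, 50 and 55 and 78.8, 71.2 and 90.5 in HFD PCN 5, 11 and 27, on 1144, 485 and 807 and on 2198, 1354 and 1628 counts. The 3 vehicle libraries nearly coincided, and every PCN library lay above the highest of the other 9 libraries, 61.2 in HFD 30. The log2 fold change was 0.88 ± 0.15 (SE), a 1.84-fold difference, and 0.88 again without HFD Vehicle 50 and 0.96 without HFD PCN 11. The authors' deposited log2 fold change, on which Adgrd1 was selected, is 0.8. Per kb Adgrd1 stood at place 6 in HFD PCN with 9.63 ± 1.17 scaled CPM per kb and at place 7 in HFD Vehicle with 5.23 ± 0.0879. Both places lay within the spread of neighbours. With PCN these were Adgrg1 at 12.2 ± 4.09 and Adgra2 at 6.66 ± 2.75, and with vehicle Adgra2 at 5.69 ± 1.42 and Adgra3 at 4.68 ± 3.38. In HFD Vehicle 50, Adgrd1 had 1.01 times the mean of the other vehicle libraries. Other members also lay near that mean, with 1.10 times for Adgra2, 1.25 for Celsr3 and 1.31 for Adgre5. The members furthest from it included Adgrf5 at 3.19 times, Adgrg1 at 3.45, Adgrg2 at 9.35, Celsr2 at 6.52 and Adgre1 at 0.0769.

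Of the 28 members 20 passed the filter, and of the 18 without Adgrd1 and Adgre1 none was called by edgeR, where 0% of all 16563 genes were called. DESeq2, limma-voom and the authors' deposited table called none of the 18 either, and of all genes they called 0.00328%, 0% and 0.00657%. At an unadjusted p under 0.05 there was 1 member, Adgrf4, beside 1.7% of all genes. Adgrf4 passed the filter in this comparison only, through its PCN libraries, where it was high. Its p and its lack of overlap are therefore descriptions and no support for a difference. Adgrf4, an orphan receptor of epithelia, had 10, 7 and 1 counts with vehicle and 51, 25 and 22 with PCN, or 0.386, 0.631 and 0.0529 against 1.83, 1.32 and 1.22 scaled CPM. Every PCN library lay above every other library, where Chow 19 was the highest at 0.907. Its log2 fold change was 2.10 ± 0.67 (SE, unadjusted p = 0.0174, edgeR adjusted p = 1), 2.60 without HFD Vehicle 50 and 2.17 without HFD PCN 11. Its neighbour Adgrf2, 16651 bases away, had 2 to 5 counts with PCN and 3 to 7 with vehicle and did not pass the filter in this comparison. Adgrd1, selected on its PCN difference, and Adgrf4 were the 2 of 28 members whose 3 PCN libraries exceeded the other 9. The share was 0.568% of the genes tested that both tables list, whereas the 28 include members that did not pass the filter. Since Adgrd1 was picked for its PCN values and Adgrf4 passed the filter through its own, this count is a description. Groups did not overlap upward for 3.5% of all genes in this contrast, and among the 18 for Adgrf4 alone.

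Mesothelial markers were also highest with PCN. Their sum was 118, 75.4 and 60.5 scaled CPM in HFD PCN 5, 11 and 27 and 21.02, 62.6 and 9.68 in HFD Vehicle 23, 50 and 55, with none of the 8 called, 3 at an unadjusted p under 0.05 (edgeR) and none at 0 in either group. HFD PCN 5 had the highest sum and the highest Adgrf4 (1.83 scaled CPM), and HFD PCN 27 had the highest Adgrd1 (90.5). HFD Vehicle 50 had a sum within the PCN range, with 43.7 scaled CPM of Adgrd1 and 0.631 of Adgrf4, both below every PCN library. Progenitor and fibroblast markers summed to 2041 to 2819 with PCN and 1274 to 2409 with vehicle, and Adgrd1 stood at 3.21% to 3.49% of that sum with PCN, 1.77% to 3.43% with vehicle, 1.49% to 2.0% in HFD and 2.81% to 2.94% in Chow. Their part in the levels of Adgrd1 and Adgrf4 was not tested.

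Adgre1, as a description, had 883, 68.1 and 887 scaled CPM with vehicle and 749, 290 and 690 with PCN, a log2 fold change of -0.09 ± 0.87 (SE) with all libraries. It was -0.62 without HFD Vehicle 50, 0.28 without HFD Vehicle 23, 0.23 without HFD PCN 11 and 0.67 in limma-voom, so its sign was not settled. The vehicle values of Adgrf5 were 231, 701 and 208 and the PCN values 273, 462 and 325 scaled CPM. Its log2 fold change of -0.11 ± 0.52 (SE) became 0.68 without HFD Vehicle 50 and -0.34 without HFD PCN 11, not called by edgeR in any of these. Adgrg1 (40.8, 148 and 44.9 against 40.4, 78.2 and 79.5) and Adgrg2 (4.28, 26.9 and 1.48 against 7.17, 11.7 and 5.89) turned from -0.24 and -0.39 to 0.62 and 1.49 in the same way. With all libraries, limma-voom gave 0.02 for Adgrf5, -0.04 for Adgrg1 and 0.70 for Adgrg2, so the sign of Adgrf5 and Adgrg2 also turned with the method. Adgrb2 had 1.003, 2.97 and 0.423 scaled CPM with vehicle and 3.87, 2.05 and 3.34 with PCN (1.13 ± 0.68 SE, edgeR adjusted p = 1). Without HFD Vehicle 50 its log2 fold change was 2.07 (edgeR adjusted p = 0.8) and 2.08 in DESeq2 (adjusted p = 0.041), where DESeq2 called 0.245% of all genes. None of the partners was called with PCN in any of the 3 lists. At an unadjusted p under 0.05 there were 2 ligands, Thbs2 and Tenm3, and none of the planar polarity or intracellular partners (edgeR).

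**Figure D4:**
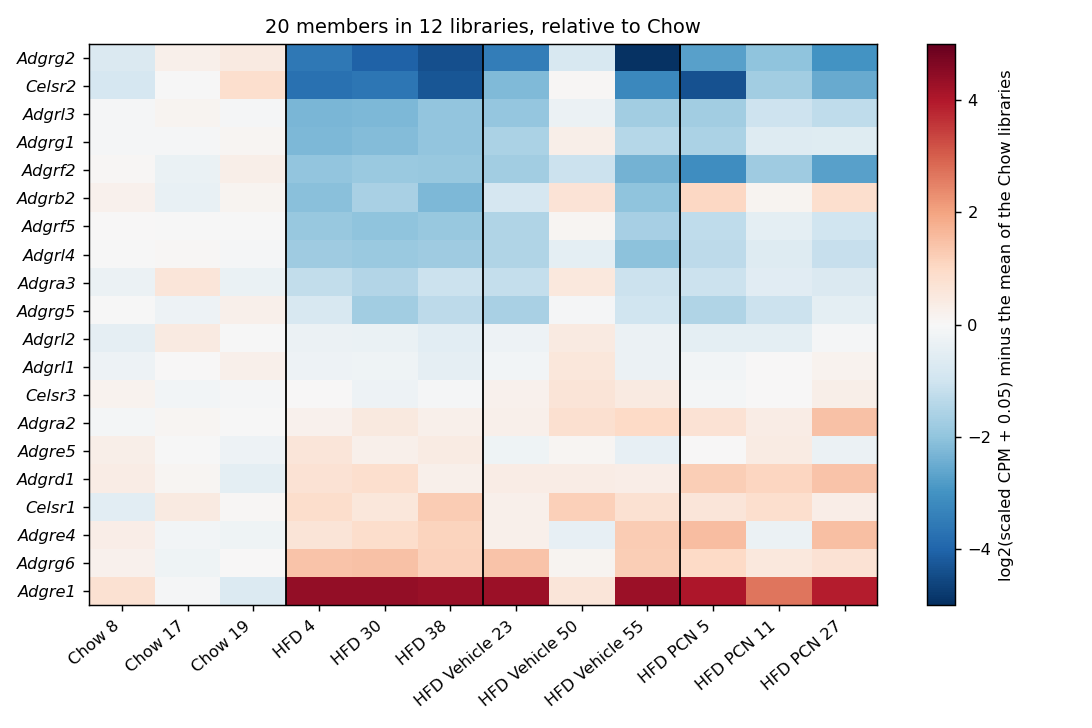
Level of 20 members, those listed in both tables that passed the diet filter, in each of the 12 libraries as log2(scaled CPM + 0.05) minus the mean of the Chow libraries. In HFD Vehicle 50, Adgrf5, Adgrg1 and Adgre1 lie near the Chow columns, and the row of Adgrd1 is highest in the 3 HFD PCN columns.

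Vehicle-injected against uninjected obese mice shares the HFD Vehicle libraries with the PCN comparison and the HFD libraries with the diet comparison. Of 28 members 19 passed the filter, and none of the 17 without Adgrd1 and Adgre1 was called by edgeR, where 0% of all 16781 genes were. DESeq2 and limma-voom called none of the 17, while DESeq2 called 0.536% of all genes. At an unadjusted p under 0.05 there were 4 of 17, beside 9.77% of all genes: Adgrg1 (log2 fold change 1.52 ± 0.53 SE), Celsr2 (2.75 ± 0.88), Celsr3 (0.57 ± 0.23) and Adgre5 (-0.56 ± 0.19), each with an edgeR adjusted p of 0.485. Without HFD Vehicle 50, Celsr2 was at 1.23 and Celsr3 at 0.44, neither called by edgeR. Groups did not overlap for 6 members upward and 1 downward, beside 12.8% and 15.5% of all genes. Without HFD Vehicle 50, edgeR called Adgrg1 higher (0.63, adjusted p = 0.0431) and Adgre5 lower (-0.73, adjusted p = 0.0458), where 0.993% of all genes were called. DESeq2 then also called Adgrf5 (0.36, adjusted p = 0.0136), beside 4.81% of all genes. Adgrd1 had 42.7 to 44.1 scaled CPM with vehicle and 40.1 to 61.2 without injection, and the groups overlapped. No partner was called in this contrast with all libraries, and without HFD Vehicle 50 edgeR called the ligands Cd55 and Lama2 lower. At an unadjusted p under 0.05 there were 2 ligands, 2 planar polarity partners and 1 intracellular partner (edgeR).

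HFD Vehicle 50 lay nearer Chow for most members that differed between the diets. The 13 members compared, all listed in both tables, were the 12 called between diets and Adgre1. The calls of Adgrb2, Adgrf2 and Adgrg5 among the 12 are descriptions. The level in HFD Vehicle 50 was nearer the Chow mean for 12 and nearer the HFD mean for 1, on the scale of log2(scaled CPM + 0.05). For HFD Vehicle 23 the numbers were 2 and 11, and for HFD Vehicle 55 they were 0 and 13. In HFD Vehicle 50, Adgrf5 (701), Adgrg1 (148) and Adgrl4 (124 scaled CPM) stood nearer the Chow than the HFD levels, as did Adgrg6 (21.8). Its Celsr1 (4.51) and Adgra2 (35.1), not called between diets, lay above the Chow range.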

How the data were processed

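Total RNA from 12 libraries was sequenced, and the authors deposited raw counts per gene in 2 tables, a diet table (Chow and HFD) and a PCN table (HFD Vehicle and HFD PCN). HISAT2, HTSeq, DESeq2 and the build GRCm38 (mm10) are named in the submitters' processing notes, without versions; nothing in the sources used here says whether strand was used in counting. Each table also holds the authors' deposited log2 fold changes and adjusted p-values.

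Counts were tested with edgeR 4.0.16 in R 4.3.3 (quasi-likelihood, TMM scaling, filterByExpr, Benjamini-Hochberg adjustment over all genes, threshold 0.05), fitted on the 6 libraries of each comparison. HFD Vehicle against HFD used the 28008 genes listed in both tables. DESeq2 1.42.0, limma 3.58.1 (voom), other scalings and filters, and leaving out each library were alternatives. TMM factors lay between 0.754 and 1.07. Exon lengths and overlaps came from GENCODE, and promoters from RefSeq (GRCm38.p6). The script was tested on simulated data.

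The members and lists were chosen with earlier results of these data known. Levels in every library are given for Adgrd1, Adgre1 and members called between diets with a log2 fold change of at least 1 in size and a mean of at least 1 CPM. Other members are summarised, and up to 4 partners of each list with the smallest p are named besides partners of described members. Values of Adgrf4 in every library were added after they were seen.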

Additional observations from a re-analysis of the deposited data

How the results depend on the processing

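In HFD against Chow, between 12 and 19 of the members other than Adgre1 were called under the alternatives, beside 13, and no member changed direction. The 19 were counted at a looser edgeR adjusted p under 0.1. 17 were called with no count filter, 16 by DESeq2 and 15 with upper quartile scaling, which moved the median of all genes from -0.03 to -0.13. No paired analysis was possible because the groups share no replicate numbers. Choices made after seeing the data were DESeq2 without HFD Vehicle 50, and leaving out mitochondrially encoded genes, which changed no count of called members. DESeq2 without HFD Vehicle 50 called 1 member with PCN and 3 for vehicle against HFD. Leaving out each library in turn gave 0 to 2 members and 0 to 2 ligands (Cd55 and Lama2 lower, without HFD Vehicle 50) for vehicle against HFD; the cause was not tested.

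For PCN against vehicle the log2 fold changes of uncalled members turned sign as follows. Leaving out 1 library at a time gave ranges of -0.15 to 0.45 for Adgra2, -0.71 to 0.35 for Adgra3, -0.42 to 0.68 for Adgrf5, -0.54 to 0.62 for Adgrg1, -0.93 to 1.49 for Adgrg2, -0.52 to 0.30 for Adgrg5, -0.25 to 0.23 for Adgrl1, -0.44 to 0.53 for Adgrl3, -0.11 to 0.74 for Adgrl4, -0.38 to 0.09 for Celsr1 and -2.06 to 0.07 for Celsr2. DESeq2 without HFD Vehicle 50 gave 0.35 for Adgra3, 0.68 for Adgrf5, 0.62 for Adgrg1, 1.5 for Adgrg2, 0.30 for Adgrg5, 0.23 for Adgrl1, 0.53 for Adgrl3, and 0.09 for both Celsr1 and Celsr2. limma-voom gave 0.02 for Adgrf5, 0.70 for Adgrg2 and 0.08 for Adgrl3. For vehicle against HFD the ranges were -0.02 to 2.41 for Adgrg2, -0.05 to 0.82 for Adgrg5 and -0.39 to 0.10 for Celsr1, and DESeq2 without HFD Vehicle 50 gave -0.03 for Adgrg2. Adgre1, given as a description, ranged from -0.62 to 0.28 with PCN when 1 library was left out. Depth limits Adgrf4, Adgrg5 and Adgrf2, each with at most 51, 23 and 14 counts in a library.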
